A study of Mus musculus with 6 samples.

Results

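Splicing factors and core proteins of the spliceosome were examined in the mouse tumour line TC-1/A9 after treatment with a DNA methyltransferase inhibitor followed by a histone deacetylase inhibitor. Members were taken by symbol in the array annotation. They were the genes beginning with Hnrnp, Srsf, Snrp, Sf3a or Sf3b (older Hnrp and Sfrs included), with U2af1, U2af2, Sf1 and Tra2b added. This rule found 43 of the 9192 genes measured, with 83 probes between them. They were 16 hnRNP genes, 9 SR protein genes, 6 genes of the Sm core, the U1 snRNP gene Snrpa, 7 genes of the SF3A and SF3B complexes, and the 4 genes Sf1, U2af1, U2af2 and Tra2b. RefSeq lists 57 protein-coding mouse genes with such symbols. The other 14 (Hnrnpa1l2-ps2, Hnrnpa3, Hnrnpd, Hnrnph2, Hnrnpu, Sf3a2, Sf3b1, Snrpa1, Snrpb2, Snrpc, Snrpe, Snrpn, Srsf12 and Srsf7) had no named probe among those kept and are not analysed here.

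TC-1/A9 is an MHC class I-deficient subline, on a C57BL/6 background, of TC-1 cells, which carry human papillomavirus oncogenes and an activated Ras gene. The study compared 3 cultures left untreated with 3 cultures that received DAC (5-aza-2'-deoxycytidine, 3 μM for 48 h, renewed after 24 h) and then TSA (trichostatin A, 30 ng/ml for a further 24 h). RNA of each culture went onto 1 Illumina bead array (Mouse WG-6). The comparison asked how this epigenetic treatment alters the transcriptome, and all cultures were of a single tumour line grown in vitro, so that other cell lines are not represented. The agents were always given in sequence, and their separate effects cannot be told apart.

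Introns are removed from pre-mRNA by the spliceosome, which is built on each transcript from small nuclear ribonucleoproteins (snRNPs) and many further proteins. SF1 binds the branch point and the U2AF pair binds the adjoining 3′ splice site, after which the U2 snRNP, with its SF3A and SF3B complexes, takes the place of SF1. SR proteins mostly bind exons and favour their inclusion, whereas hnRNPs bind along the pre-mRNA and often favour skipping. Many genes of both families control their own transcript level through exons or introns that expose the mRNA to nonsense-mediated decay. The array measured transcript level at the position of each probe and did not measure splicing itself, protein or DNA methylation.

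Between 14704 and 14802 probes were detected on the untreated arrays and between 15008 and 15783 on the DAC/TSA arrays, and the lowest correlation between arrays of the same group was r = 0.9934. Of the 43 genes, 42 were detected on all 6 arrays and Hnrnph3 on 5. The arrays numbered 1 stood apart from those numbered 2 and 3 in both groups. Array 1 was the lowest of its group in both groups for 10 of the 43 genes and the highest in both for 6, against 24.0% and 32.1% of all genes. Leaving out both arrays numbered 1 together gave the same 10 calls among the 43 genes. When single arrays were left out, however, Sf3b3 lost its call in every case, and Srsf6 and Hnrnpll lost theirs in some. Markers of other cell types were looked at beside these values. All 4 of 8 epithelial markers with a kept probe were higher with DAC/TSA. Their summed linear signal was 196 to 210 on untreated and 723 to 884 on DAC/TSA arrays. Only Krt8 was detected on untreated arrays. Krt18, Krt19 and Cldn4 were kept through the DAC/TSA arrays alone, so the filter favoured their rise, and their untreated signal is background. Against the detection floor they were at least 3.46-fold (Krt18, a simple epithelial keratin), 1.09-fold (Krt19) and 1.36-fold (Cldn4) higher with DAC/TSA. Cdh1, Epcam, Krt7 and Ocln had no kept named probe. For 5 of 7 mesenchymal markers the sum was 14500 against 9060 to 10100, with 4 lower and Thy1 higher (0 lower with median scaling). Of 12 immune markers only Lyz2 had a kept probe (35.1 to 36.5 against 58.0 to 65.3), Ptprc being among those without one, and none of 7 endothelial markers had one. Lyz2 too was detected on no untreated array and kept through the DAC/TSA arrays alone. Against the detection floor it was at least 1.06-fold higher with DAC/TSA. The part of these shifts in the splicing gene values was not tested. In RNA from whole cultures, fewer cells of a type and less RNA per cell cannot be told apart.

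Because DAC blocks the copying of CpG methylation, the promoters of 4 members are shown first, 3 of the genes with the steepest decreases and, for contrast, Snrpd3, whose difference was close to 0. Each runs 5′ to 3′ from 250 bases before to 50 bases after the RefSeq transcription start (build GRCm38.p6), and capitals mark every CpG. The windows are chr7:28810640-28810939 on the plus strand for Hnrnpl (21 CpG), chr5:100039173-100039472 on the minus strand for Hnrnpdl (42 CpG), chr19:6363440-6363739 on the plus strand for Sf1 (24 CpG) and chr10:75517792-75518091 on the plus strand for Snrpd3 (18 CpG).
Hnrnpl: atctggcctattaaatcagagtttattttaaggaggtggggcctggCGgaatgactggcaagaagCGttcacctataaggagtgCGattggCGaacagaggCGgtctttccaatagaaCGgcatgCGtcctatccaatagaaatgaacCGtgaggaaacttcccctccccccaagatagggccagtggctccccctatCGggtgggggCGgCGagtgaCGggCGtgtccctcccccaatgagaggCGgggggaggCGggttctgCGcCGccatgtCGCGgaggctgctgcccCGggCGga
Hnrnpdl: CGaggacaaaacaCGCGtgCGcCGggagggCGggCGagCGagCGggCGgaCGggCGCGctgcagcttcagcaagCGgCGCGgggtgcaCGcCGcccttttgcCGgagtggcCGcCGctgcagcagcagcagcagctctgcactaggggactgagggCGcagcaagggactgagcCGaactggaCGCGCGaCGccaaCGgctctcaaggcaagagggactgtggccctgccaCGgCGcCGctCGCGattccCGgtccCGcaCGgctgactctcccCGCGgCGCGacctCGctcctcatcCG
Sf1: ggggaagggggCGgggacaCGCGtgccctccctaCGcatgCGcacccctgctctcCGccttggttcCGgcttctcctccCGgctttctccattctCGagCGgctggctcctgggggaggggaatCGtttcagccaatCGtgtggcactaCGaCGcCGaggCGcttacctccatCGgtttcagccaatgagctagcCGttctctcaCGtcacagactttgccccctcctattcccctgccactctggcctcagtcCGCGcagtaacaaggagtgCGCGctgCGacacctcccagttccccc
Snrpd3: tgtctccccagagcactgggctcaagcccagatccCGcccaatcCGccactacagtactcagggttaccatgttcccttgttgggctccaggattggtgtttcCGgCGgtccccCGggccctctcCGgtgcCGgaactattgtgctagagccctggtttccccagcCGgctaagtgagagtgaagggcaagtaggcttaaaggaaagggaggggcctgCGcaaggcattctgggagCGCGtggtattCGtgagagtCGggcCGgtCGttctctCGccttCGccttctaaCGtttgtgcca
All 4 windows were rich in CpG, with ratios of observed to expected CpG of 0.79, 1.06, 0.80 and 0.66 in the same order.

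The same held for the family as a whole. RefSeq promoters matched 36 of the 43 genes, with 51 windows of 300 bases. Their median CpG number was 26 (range 7 to 52), against 7 over 32851 windows of 27025 genes, and the median ratio of observed to expected CpG was 0.956 against 0.384. The 12 windows of the 9 matched genes that were lower with DAC/TSA had a median of 35.5 CpG (range 20 to 49), and the 39 windows of the 27 other matched genes a median of 25 (range 7 to 52), so that the ranges overlapped. Genes with several transcription starts, such as Srsf4, count more than once in these numbers, and their windows can be nearly the same. Motifs were searched on both strands and can overlap each other. CCGGAAGT, an ETS site, stood in 17.6% of the members' windows and 3.89% of all windows. GGGCGG, the GC box, stood in 72.5% against 35.7%, CCAAT in 54.9% against 37.4%, and TATAAA, the TATA box, in 11.8% against 13.6%. Such matches describe letters in these windows and not bound sites. The windows of all genes include genes not measured on these arrays. Whether the members' CpG and motif numbers differ from those of the 9192 measured genes was not tested.

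After DAC/TSA, 10 of the 43 splicing genes were lower than in untreated cells, none was higher, and 33 did not pass the test. A gene counted as lower or higher when its limma test, adjusted over all kept probes, passed a false discovery rate of 0.01. The 10 made up 23.3% of the members, a share near the background, since 21.4% of all genes were lower. For higher calls the share was 0 of 43, against 22.5% of all genes. At an unadjusted p under 0.05, 5 of the 43 members lay above 0 and 15 of the 43 below 0, compared with 32.4% and 30.3% of all genes. The share below 0 was again not far from that of all genes. The genes that fell were Hnrnpl, Hnrnpdl, Sf1, Srsf6, Hnrnpr, Srsf3, Srsf4, Sf3a3, Hnrnpll and Sf3b3, and in each of them every DAC/TSA array lay under every untreated array. Passing the test itself favours such separation, and its share among all called genes was not determined. It describes these genes here and below and adds no support to the calls. No member fell as much as 2-fold, while 7.77% of all genes changed at least 2-fold. The median log2 difference was -0.09 over the members and 0.01 over all genes, with a range of -0.84 to 0.26 among the members. Differences were also small in size, with a median absolute log2 difference of 0.17 against 0.31 for all genes, at a median standard error of 0.09 in both.

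**Figure D1:**
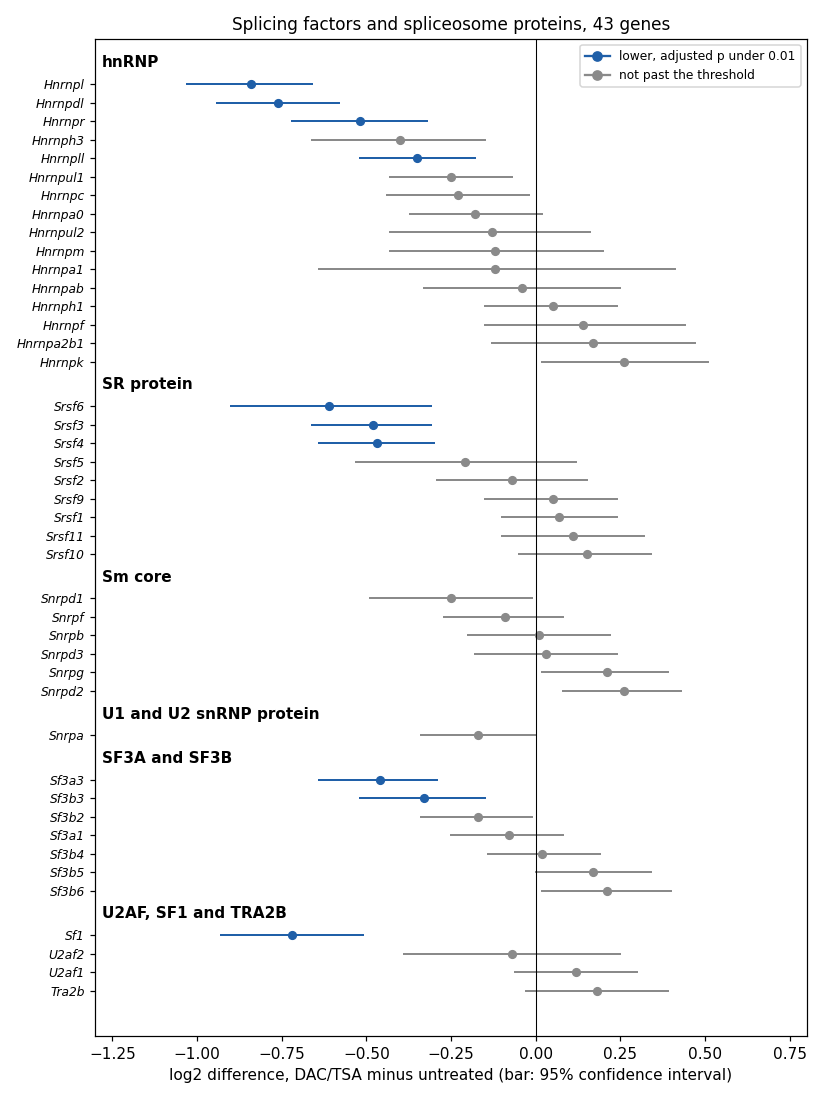
Log2 difference between DAC/TSA and untreated cultures for each of the 43 genes, by family (x axis, log2 units; points are limma estimates from 3 arrays per group and bars are 95% confidence intervals). The 10 genes past the threshold (blue) all lie below 0, down to -0.84, and the highest point of the 43 is 0.26.

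These counts depended on how the arrays were scaled. When arrays were scaled by their medians and not quantile-normalised, Hnrnpl, Hnrnpdl and Sf1 stayed lower, the other 7 calls were lost, and 8.44% of all genes were lower. With the array number as a block, 13 members were lower and 1 higher, the added genes being Hnrnph3, Hnrnpul1 and Snrpd1 (lower) and Snrpd2 (higher), while 27.3% of all genes were then lower and 29.4% higher. For the 33 genes that did not pass, 29 had a 95% confidence interval within 0.5 log2 units of 0, and the highest upper bound of any member was 0.51. In 20 of the 33 the values of the groups overlapped. The matching share among all genes that did not pass was not determined, so this count is a description only.

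Among the 16 hnRNP genes, 4 fell (25.0%, against 21.4% of all genes), none rose (against 22.5%) and 12 did not pass. Their median log2 difference was -0.15. With median scaling 2 were lower (12.5%, against 8.44% of all genes). Above 0, 1 gene had an unadjusted p under 0.05 (Hnrnpk), and below 0 there were 7, against 32.4% and 30.3% of all genes. Hnrnpl, which binds CA-rich elements and regulates exon choice, had the steepest decrease. Its log2 signals were 12.22, 12.33 and 12.16 on the untreated arrays and 11.37, 11.36 and 11.44 with DAC/TSA. All 3 treated arrays thus lay close together and well under the untreated ones, a 1.80-fold decrease (95% confidence interval 1.58 to 2.04, adjusted p = 1.56e-05). Hnrnpdl, an AU-rich element binding protein that regulates its own splicing, had log2 signals of 11.27, 11.19 and 11.21 untreated and 10.40, 10.46 and 10.55 treated. This was a 1.69-fold decrease (1.49 to 1.92, adjusted p = 2.76e-05), again with no overlap between groups. Hnrnpr, a relative of the RNA-binding protein Syncrip, gave 6.75, 6.75 and 6.56 without and 6.11, 6.26 and 6.13 with treatment. It stood 1.44-fold lower (1.25 to 1.65, adjusted p = 0.000691). Hnrnpll, the paralogue of Hnrnpl known for regulating CD45 exons in lymphocytes, had untreated log2 signals of 10.00, 10.02 and 9.92 and treated ones of 9.64, 9.62 and 9.63. Its decrease was smaller, 1.28-fold (1.13 to 1.44, adjusted p = 0.00311), and the call was lost without untreated array 2 or without DAC/TSA array 2 or 3 (adjusted p up to 0.0164). With both its probes averaged the log2 difference was -0.12 (adjusted p = 0.172).

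The other 12 hnRNP genes did not pass the test. Hnrnpc, which binds uridine tracts in introns, had log2 signals of 14.00, 13.73 and 13.74 untreated and 13.63, 13.61 and 13.54 treated, a difference of -0.23 ± 0.10 (SE) that did not pass (adjusted p = 0.0671). The groups did not overlap, but untreated array 1 lay well above its replicates. For Hnrnpk, a poly(C)-binding protein, the log2 difference was 0.26 ± 0.11, and for Hnrnpa2b1, which binds exon silencers, 0.17 ± 0.13. The G-tract binding pair Hnrnpf and Hnrnph1 stood at 0.14 ± 0.13 and 0.05 ± 0.09. Hnrnpa1, the best known splicing repressor of the family, had signals of 8.51, 9.30 and 9.31 untreated and 8.45, 9.22 and 9.10 treated. Here array 1 was low in both groups, and a difference within the wide interval (-0.64 to 0.41 log2 units) was not detectable with these arrays. By their brightest probes Hnrnpm, Hnrnpab, Hnrnpul2 and Hnrnpa0 lay between -0.18 and -0.04. Their other probes did not pass either. These stood at -0.44 ± 0.13 for Hnrnpa0 (adjusted p = 0.0145) and at -0.33 ± 0.09 and -0.27 ± 0.09 for Hnrnpm (adjusted p = 0.0131 and 0.0223). Those of Hnrnpab and Hnrnpul2 lay above 0, at 0.16 ± 0.08 and 0.12 ± 0.08. Hnrnph3 (log2 difference -0.40 ± 0.11, adjusted p = 0.0133) and Hnrnpul1 (-0.25 ± 0.08, adjusted p = 0.0275) did not pass, but did so with the array number as a block (adjusted p = 0.00378 and 0.00756). Over all alternatives their adjusted p ran from 0.00378 to 0.0871 and from 0.00756 to 0.987. The second probe of Hnrnpul1, detected on no untreated array, stood on the other side of 0 at 0.25 ± 0.08 (adjusted p = 0.0238).

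Of the 9 SR protein genes, 3 fell (Srsf6, Srsf3 and Srsf4, 33.3% against 21.4% of all genes), none rose (against 22.5%) and 6 did not pass. With median scaling none of the 9 was lower (against 8.44% of all genes). None of the 9 had an unadjusted p under 0.05 above 0 (against 32.4%), and the median log2 difference was -0.07. Srsf3, the smallest SR protein, which restrains its own mRNA through a poison exon, had signals of 8.14, 8.08 and 8.06 untreated and 7.62, 7.64 and 7.56 treated. The groups stood clear of each other, a 1.40-fold decrease (95% confidence interval 1.24 to 1.58, adjusted p = 0.00044). Srsf4 fell to a like degree, 1.38-fold (1.23 to 1.56, adjusted p = 0.00055). Its signals were 10.60, 10.58 and 10.51 on untreated arrays and 10.07, 10.12 and 10.11 on DAC/TSA arrays. Srsf6, a close relative of Srsf4, gave 9.91, 10.37 and 10.26 untreated and 9.34, 9.67 and 9.70 treated. Array 1 was the lowest in both groups, and untreated array 1 lay only a little above the upper treated arrays. Its 1.52-fold decrease (1.24 to 1.87, adjusted p = 0.00344) was lost without untreated array 2 or 3 or without DAC/TSA array 1 (adjusted p up to 0.0154).

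The remaining SR genes stood closer to 0. Srsf1, the founding member and a known oncogene, had signals of 12.34, 12.41 and 12.35 untreated and 12.43, 12.43 and 12.46 treated, a log2 difference of 0.07 ± 0.08. Srsf2, the speckle protein first known as SC35, stood at -0.07 ± 0.10 and Srsf9 at 0.05 ± 0.09. Srsf10, which acts as a splicing repressor when dephosphorylated, stood at 0.15 ± 0.09, Srsf11 at 0.11 ± 0.09 and Srsf5 at -0.21 ± 0.14 by their brightest probes, although other probes of these 3 genes passed the test.

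Of the 4 genes Sf1, U2af1, U2af2 and Tra2b, 1 fell (25.0%, against 21.4% of all genes), none rose (against 22.5%) and 3 did not pass. Sf1, which marks the branch point before the U2 snRNP arrives, had signals of 9.12, 9.0 and 9.0 untreated and 8.38, 8.15 and 8.42 treated. It was 1.65-fold lower (95% confidence interval 1.43 to 1.91, adjusted p = 0.000118), with a gap between the groups larger than the spread within either. No gene of this group of 4 lay above 0 at an unadjusted p under 0.05, against 32.4% of all genes. U2af2, which binds the polypyrimidine tract, gave 6.71, 7.20 and 7.23 untreated and 6.88, 6.89 and 7.17 treated (log2 difference -0.07, interval -0.39 to 0.25, adjusted p = 0.718). U2af1, which contacts the AG of the splice site, gave 8.15, 8.28 and 8.27 untreated and 8.32, 8.33 and 8.40 treated (0.12, interval -0.06 to 0.30, adjusted p = 0.246). Thus U2af2 overlapped between groups whereas U2af1 did not, and whether either differs from Sf1 was not tested. Tra2b, an SR-like activator of exon inclusion, had signals of 9.22, 9.06 and 9.35 untreated and 9.43, 9.43 and 9.32 treated (0.18 ± 0.09, adjusted p = 0.127).

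Within SF3A and SF3B, the U2 snRNP complexes that hold the branch point, 2 of 7 genes fell (28.6%, against 21.4% of all genes). None rose (against 22.5%), 5 did not pass, and with median scaling none was lower (against 8.44%). Above and below 0, 2 and 3 genes had an unadjusted p under 0.05 (against 32.4% and 30.3%), and the median log2 difference was -0.08. Sf3a3, a subunit of SF3A, had signals of 11.88, 11.95 and 12.00 untreated and 11.46, 11.46 and 11.52 treated, a 1.38-fold decrease (1.22 to 1.55, adjusted p = 0.00065) without overlap. Sf3b3, a scaffold subunit of SF3B, fell 1.26-fold (1.11 to 1.43, adjusted p = 0.00669), from 11.59 ± 0.06 to 11.25 ± 0.09 (SD, n = 3). That call was the least secure of the 10. It was lost when any 1 of the 6 arrays was left out (adjusted p 0.0115 to 0.0373) and after background correction (adjusted p = 0.0157), within a range over all alternatives of 0.00192 to 0.163. Sf3b2 had signals of 12.23, 12.16 and 12.16 against 12.01, 11.99 and 12.02 (log2 difference -0.17, adjusted p = 0.0772). Values for the other subunits were -0.08 for Sf3a1, 0.02 for Sf3b4, 0.17 for Sf3b5 and 0.21 for Sf3b6, the subunit that lies at the branch region.

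The Sm core, the protein ring that is shared by the spliceosomal snRNPs, held no gene past the threshold among its 6 measured members, and its median log2 difference was 0.02. Of all genes, 22.5% were higher and 21.4% lower. At an unadjusted p under 0.05 there were 2 Sm core genes above 0 and 1 below, against 32.4% and 30.3% of all genes. Snrpd2 had signals of 12.41, 12.51 and 12.41 untreated and 12.75, 12.69 and 12.67 treated, so that the groups did not overlap. Its log2 difference of 0.26 ± 0.08 did not pass (adjusted p = 0.0179), but did so with the array number as a block (adjusted p = 0.00734), over a range of 0.00734 to 0.0934 in all alternatives. Snrpd1, which pairs with Snrpd2 in the ring, lay on the other side of 0 at -0.25 ± 0.11 (adjusted p = 0.0744, and 0.0069 with the block, over a range of 0.0069 to 0.238). Snrpg stood at 0.21 ± 0.08, Snrpf at -0.09 ± 0.08, Snrpd3 at 0.03 ± 0.09 and Snrpb at 0.01 ± 0.09. The dimmer probe of Snrpg stood at -0.27 ± 0.09 and did not pass (adjusted p = 0.0306). Snrpa, the U1 snRNP protein that binds a stem-loop of U1 RNA, had signals of 10.39, 10.46 and 10.48 untreated and 10.29, 10.23 and 10.29 treated (log2 difference -0.17 ± 0.08, adjusted p = 0.0875).

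**Figure D2:**
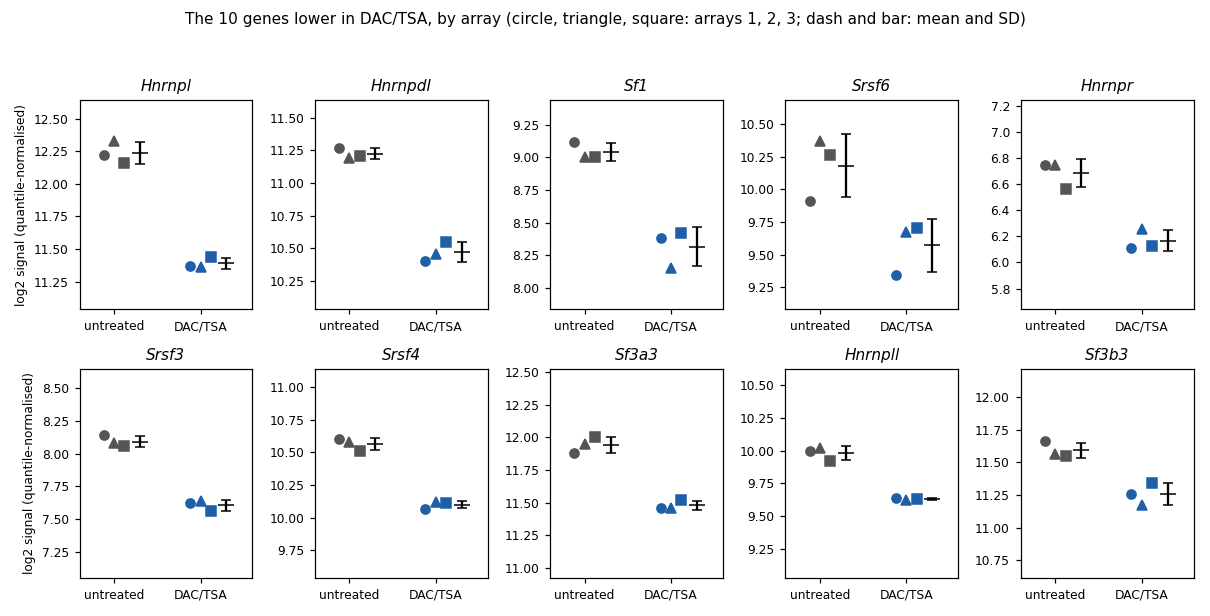
Quantile-normalised log2 signal of the 10 genes that were lower with DAC/TSA, 1 panel per gene (y axis, log2 signal; symbols are single arrays, numbered by shape, and bars are the mean and SD of 3 arrays). In every panel all 3 DAC/TSA arrays lie under all 3 untreated arrays, with the narrowest separation in Srsf6 and Sf3b3. The genes were chosen by the test, which favours such separation.

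Probes of 1 gene did not always move together. The 43 genes had 83 kept probes, 26 genes with more than 1. Of the 83 probes, 18 were lower and 2 higher, together 24.1%, against 38.7% of all kept probes. Every probe agreed on a decrease in only 1 gene with several probes, Srsf3 (2 probes), and in 15 genes no probe passed. In the other 10 genes the probes differed in their call. The array files used here give no position of the probes within a transcript, and whether such probes read different isoforms or near-identical copies elsewhere in the genome was not tested.

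Srsf10 had the widest disagreement. Its probe ILMN_3090825 rose 1.82-fold (adjusted p = 1.08e-05), from log2 signals of 6.27, 6.14 and 6.23 untreated to 7.14, 7.06 and 7.04 treated, with a clear gap between the groups. The other probes of Srsf10 stood at 0.15 ± 0.09 and -0.29 ± 0.11 and did not pass. Srsf11, an arginine-serine-rich protein of nuclear speckles, showed the opposite. There ILMN_1257639 fell 1.82-fold (adjusted p = 1.11e-05), from 8.59, 8.51 and 8.49 to 7.74, 7.61 and 7.64, while its other probes stood at 0.11 ± 0.09 and 0.17 ± 0.11. Hnrnph1 had 5 kept probes, of which ILMN_2684987 rose 1.35-fold (adjusted p = 0.000864) and the other 4 lay between 0.04 and 0.10. The former read 6.85, 6.83 and 6.83 untreated and 7.31, 7.28 and 7.22 treated.

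For Sf1, 3 of 4 probes fell, with log2 differences of -0.72 ± 0.09, -0.83 ± 0.08 and -0.78 ± 0.08, and the fourth stood at -0.02 ± 0.10. Hnrnpdl had 2 probes that fell (-0.76 ± 0.08 and -0.65 ± 0.08) and 1 that did not pass (-0.28 ± 0.15), all on the same side of 0. Srsf5 fell by ILMN_3148662, from 11.32, 11.32 and 11.40 to 10.91, 10.64 and 10.81 (-0.56 ± 0.09, adjusted p = 0.000467). By the brighter probe of Srsf5 the signals were 11.81, 11.32 and 11.31 against 11.46, 11.27 and 11.08, with untreated array 1 standing apart. Srsf6 gave -0.46 ± 0.13 by its second probe (adjusted p = 0.0155) and Hnrnpll 0.10 ± 0.12 by its second, which lay above 0 where the brighter one fell. The third probe of Hnrnpa1 fell, from 7.14, 7.03 and 7.11 to 6.78, 6.65 and 6.46 (-0.46 ± 0.10, adjusted p = 0.00242), and lacked the low array 1 seen with its brighter probe. In Sf3b6, ILMN_2556771 was detected on all untreated arrays and not well above background on any DAC/TSA array, at least 1.18-fold lower against the detection floor (adjusted p = 0.00104), while the brightest probe stood at 0.21 ± 0.09.

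**Figure D3:**
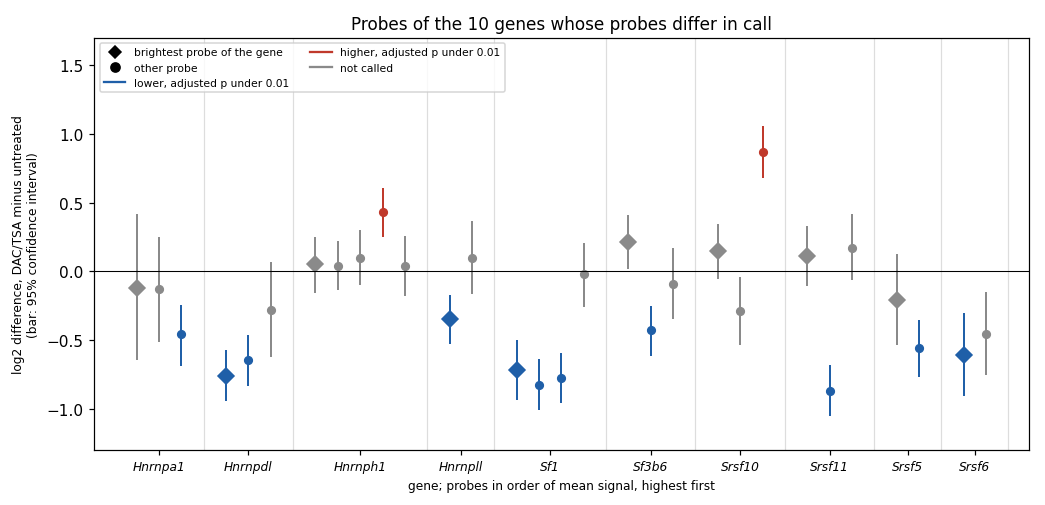
Log2 difference between DAC/TSA and untreated cultures for each kept probe of the 10 genes whose probes differed in call (y axis, log2 units; bars are 95% confidence intervals; diamonds mark the brightest probe of a gene). Single probes of Srsf10 (0.87) and Hnrnph1 (0.43) lie above 0, and 1 probe of Srsf11 (-0.87) lies far under its other 2.

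Other genes of the splicing pathway were taken from 7 lists, 198 genes in all, of which 150 were measured. Of these, 14 were higher (9.33%, against 22.5% of all genes) and 30 lower (20.0%, against 21.4%), with a median log2 difference of -0.09. With the array number as a block, 24 were higher and 38 lower, beside 29.4% and 27.3% of all genes. With median scaling 7 were higher and 10 lower, beside 13.3% and 8.44% of all genes. The lists differed among themselves, and these differences between lists were not tested.

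Proteins of the catalytic machinery mostly stayed near 0. None of 21 measured proteins of the U5 snRNP and the U4/U6.U5 tri-snRNP passed the test (median 0.04). Of all genes, 22.5% were higher and 21.4% lower. At an unadjusted p under 0.05, 3 lay above and 1 below 0, against 32.4% and 30.3% of all genes. With the array number as a block 3 were higher and 2 lower, against 29.4% and 27.3% of all genes. Without untreated array 1 there were 1 higher and 2 lower, against 24.0% and 22.3%. Among 36 U1-associated, Prp19 complex, helicase and late spliceosome proteins, 3 rose (8.33%, against 22.5% of all genes) and 5 fell (13.9%, against 21.4%), with a median of 0.01. These counts were 5 and 5 with the array number as a block, and 1 and 2 without DAC/TSA array 2. Leaving out untreated array 2 or 3, or DAC/TSA array 1 or 3, gave 3 lower. Phf5a, a small SF3B subunit outside the symbol rule, rose 1.51-fold, from log2 signals of 11.60, 11.68 and 11.65 to 12.23, 12.19 and 12.28 (adjusted p = 0.000122). It moved opposite to Sf3b3 of the same complex. Bud31 rose by 0.51 ± 0.11, whereas the U1-associated Luc7l (-0.74 ± 0.12) and the second-step factor Cdc40 (-0.48 ± 0.12) fell. Cdc40 lost its call in 6 of 15 alternatives, 4 of them the loss of a single array (untreated 2 or 3, DAC/TSA 1 or 2, adjusted p up to 0.0394). Bud31 lost its call without DAC/TSA array 2 and when its probes were averaged, and Luc7l stood at -0.36 by the average of its probes. With median scaling 0 of these 36 were higher (against 13.3% of all genes) and 1, Luc7l, was lower (2.78%, against 8.44%). The minor spliceosome, which removes a rare class of introns, had 6 of 10 genes measured. Of these, 1 was higher (Zcrb1, 0.48 ± 0.09, 16.7% against 22.5% of all genes) and 1 lower (Snrnp48, -0.64 ± 0.10, 16.7% against 21.4%). There were 3 higher with the block (against 29.4% of all genes) and 0 with median scaling (against 13.3%), where the adjusted p of Zcrb1 was 0.0464.

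The regulators that bind RNA held the steepest single decreases of the pathway lists. Of 37 other RNA-binding splicing regulators, 3 rose (8.11%, against 22.5% of all genes) and 8 fell (21.6%, against 21.4%), with a median of -0.17. With median scaling 2 were higher (5.41%, against 13.3% of all genes) and 4 lower (10.8%, against 8.44%). Qk, the quaking protein, fell 2.55-fold (95% confidence interval 2.24 to 2.92), from 7.35, 7.40 and 7.26 to 6.09, 5.95 and 5.91 (adjusted p = 8.61e-07). Its treated signals lay near the detection floor, and after background correction the log2 difference was -1.83 instead of -1.35. The related factors Celf2 and Celf1, known from muscle and brain splicing, moved apart. Celf2 fell 2.44-fold (2.01 to 2.98, adjusted p = 1.72e-05), from 9.36, 9.67 and 9.67 to 8.02, 8.45 and 8.35, and by the average of its kept probes the log2 difference was -0.75. Celf1 rose 1.75-fold (1.53 to 2.00, adjusted p = 3.26e-05), from 10.36, 10.24 and 10.20 to 11.19, 11.05 and 10.98. Both pairs of groups were free of overlap. Rbmx, also called hnRNP G, rose by 0.76 ± 0.08. It would have been counted among the hnRNPs by protein name but not by symbol. Syncrip, the relative of Hnrnpr and likewise outside the symbol rule, moved the other way and was among the 8 that fell.

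SR protein kinases and nuclear speckle proteins, which phosphorylate and store the SR proteins, included 1 gene of 26 that rose (3.85%, against 22.5% of all genes) and 10 that fell (38.5%, against 21.4%), with a median of -0.18. Without DAC/TSA array 2, 6 of the 26 were lower (23.1%), beside 1469 of all 9192 genes. The decreases were led by Rsrc1 (-0.73 ± 0.10) and Pnisr (-0.65 ± 0.08), both arginine-serine-rich proteins. Cyclin L1, encoded by Ccnl1, rose by 0.35 ± 0.09 (adjusted p = 0.00979), just inside the threshold, and its adjusted p ran up to 0.736 in the alternatives. With median scaling only 1 gene of this list, Rsrc1, was lower (3.85%, against 8.44% of all genes) and none was higher (against 13.3%). In the exon junction complex and nonsense-mediated decay list, 6 of 10 measured genes fell (60.0%, against 21.4% of all genes). None rose at this threshold (22.5% of all genes) or at an unadjusted p under 0.05 (32.4%), and the median was -0.42. The steepest were Smg6, the endonuclease of the decay pathway (1.83-fold, 1.62 to 2.07, adjusted p = 1.11e-05), and Smg1, the kinase that acts on Upf1 (1.82-fold, 1.62 to 2.04, adjusted p = 7.24e-06). Smg1 read 10.65, 10.67 and 10.65 untreated and 9.82, 9.76 and 9.80 treated. With median scaling 3 genes of the list were lower (30.0%, against 8.44% of all genes).

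Genes that assemble the Sm core onto snRNA ran the other way. Of 15 measured, 6 rose (40.0%, against 22.5% of all genes) and none fell (against 21.4%), with a median of 0.25. At an unadjusted p under 0.05, 1 lay below 0, against 30.3% of all genes. Gemin6 (1.93-fold, 95% confidence interval 1.58 to 2.36, adjusted p = 0.000151) and Ddx20 (1.86-fold, 1.61 to 2.14, adjusted p = 2.19e-05), both of the SMN complex, had the greatest increases. Ddx20 went from 8.58, 8.65 and 8.63 to 9.35, 9.60 and 9.59, with no overlap. Of the 6, 5 were also higher with median scaling (33.3% of the list, against 13.3% of all genes). By contrast, no gene of the Sm core itself passed the test.

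**Figure D4:**
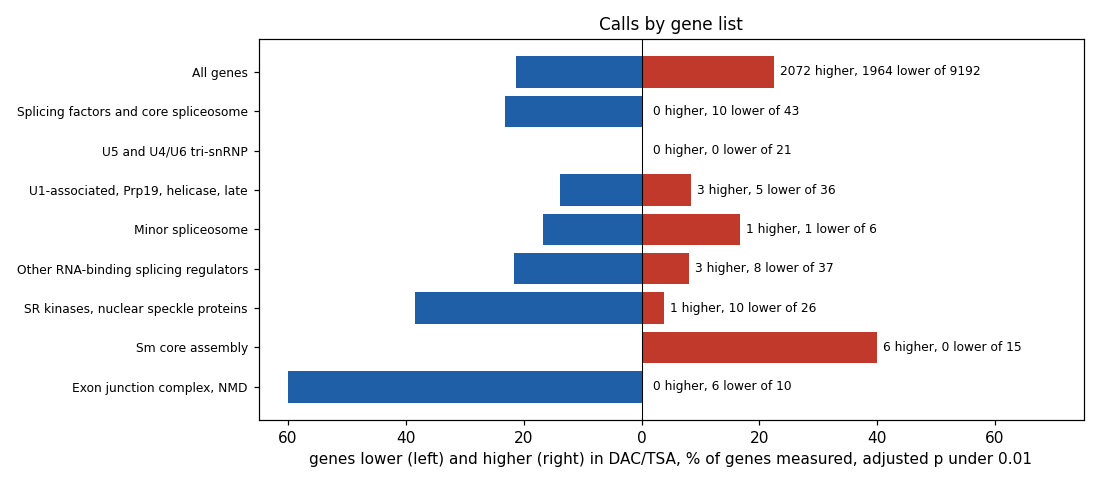
Share of measured genes that were lower (blue, left) and higher (red, right) with DAC/TSA at a false discovery rate of 0.01, for all genes, the 43 splicing genes and the 7 further lists (x axis, % of genes measured; counts stand beside the bars). The bar of the 43 genes reaches 23.3% on the lower side and 0% on the higher side, and the bar of all genes 21.4% and 22.5%.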

How the data were processed

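Transcript levels were measured in 3 untreated and 3 DAC/TSA-treated cultures, described as biological replicates, grouped by the sample titles and treatment labels. The authors summarised the bead signals with BeadStudio, and the deposited intensity of each probe is linear, without normalisation or background subtraction. Each deposited signal comes with a p-value of detection, set against negative controls. The authors also deposited log2 values of 16148 probes, quantile-normalised with lumi and limma, with package versions not given in the sources used here. Values recomputed here differed from these by at most 0.0125.

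The intensities of 45281 probes were quantile-normalised, turned into log2 values with no background correction. Probes with a detection p of 0.01 or less on any array were kept (17445). Of these, 13943 carried 1 symbol while 3495 have no name here. Current symbols came from RefSeq (GRCm38.p6) by Entrez number, and each gene was read by its brightest kept probe, a rule that serves choice only, since levels of different probes cannot be compared. Groups were compared with lmFit and eBayes of limma 3.58.1 in R 4.3.3, two-sided, with Benjamini-Hochberg adjustment over the kept probes and a threshold of 0.01, and the procedure was tested on simulated data. Adjusted p-values come from this fit unless an alternative is named beside them, and those come from the same limma steps under that alternative. Errors are standard errors for differences and SD for means. Scripts used Python 3.11.15, pandas 2.3.3 and matplotlib 3.10.9. Arrays give no counts, so that the 3 arrays per group limit the precision.

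Members and gene lists were chosen with earlier results of these data known, so list counts are descriptions. Single values were given for the called members, for Sf1, U2af1, U2af2 and Tra2b, for genes whose probes differ, for the member of each family with the brightest probe, and for up to 2 called genes per direction in each further list. Rnps1 stands in 2 of the 7 lists. Whether the labels' array numbers pair the cultures was checked. Deviations from group means correlated between same-numbered arrays at r = 0.63, 0.24 and 0.36, all above 0.1, so a blocked fit was set beside the main one. Arrays 2 and 3 across numbers reached 0.37 and 0.38, and the labels name no shared batch. Alternatives were median scaling, neqc background correction with an offset of 16, other detection filters, the deposited log2 table, averaging all kept probes per gene, the block, and leaving out each array, with both arrays numbered 1 left out added after the data were seen.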

Additional observations from a re-analysis of the deposited data

How the results depend on the processing

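Each result was recomputed under 15 alternatives. Median scaling moved the count of lower members and both counts of other splicing genes by over 1.5 times. Averaging all probes of a gene, or the replicate block, moved the count of higher members from 0 to 1. The block also moved the count of higher other splicing genes by over 1.5 times, and the remaining counts moved less. With median scaling 3 members were lower instead of 10, the members' median log2 difference was 0.00 instead of -0.09 (median of all genes 0.09 instead of 0.01), and 7 other splicing genes were higher and 10 lower instead of 14 and 30. With all probes of a gene averaged 1 member was higher (Snrpd2, which has 1 probe and kept its difference of 0.26), Hnrnpll was lost (log2 difference -0.12) and Srsf5 was added (-0.38). With the replicate block 1 member was higher, 13 were lower, and 24 other splicing genes were higher. The block ended none of the 10 calls and, beside these added members, changed no call of a named gene. Leaving out 1 array gave 7 to 9 lower members and 20 to 36 other splicing genes lower, and neqc gave 9 members. Hnrnpl, Hnrnpdl and Sf1 kept direction and call in all 15, and all 10 called members kept their direction. Of the 17 genes of the other lists given with single values, all kept their direction and 11 their call in every alternative. The sign of 14 members that did not pass turned somewhere. Median scaling gave 0.02 for U2af2, 0.00 for Sf3a1 and 0.01 for Hnrnpab. The mean of probes gave -0.10 for Sf3b6, -0.19 for Srsf11, 0.06 for Srsf2, -0.03 for Snrpg and 0.06 for Hnrnpab. Without both arrays numbered 1 Srsf2 stood at 0.04, Snrpb at -0.01 and Hnrnpul2 at 0.11. Leaving out 1 array ran from -0.38 to 0.12 for Hnrnpa1, -0.17 to 0.07 for Hnrnpab, -0.02 to 0.11 for Hnrnph1, -0.24 to 0.02 for Hnrnpm, -0.21 to 0.02 for Hnrnpul2, -0.06 to 0.07 for Snrpb, -0.05 to 0.10 for Snrpd3, -0.14 to 0.03 for Srsf2, -0.01 to 0.09 for Srsf9 and -0.24 to 0.03 for U2af2. The cause of these shifts was not tested. Hnrnph3, several second probes and the treated signals of Qk, Snrnp48 and Hnrnpr lay near the detection floor, where signal over background limits the measured difference. With neqc the log2 difference was -1.83 instead of -1.35 for Qk, -0.94 instead of -0.64 for Snrnp48 and -0.73 instead of -0.52 for Hnrnpr.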
